A study of Mus musculus with 20 samples.

Results

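Regions with a called accessibility peak in fetal mammary stem cells (fMaSC) and adult luminal progenitors (LP) formed a set of 2670 sites in the mouse genome. They had no called peak in adult basal or adult mature luminal (ML) cells. They were found by merging the peaks of the 4 normal cell types wherever peaks overlapped or touched, on 19 autosomes and X. A merged region was kept when it held an fMaSC and an LP peak and no basal or ML peak. The set, called fetal-progenitor regions here, made up 2.07% of 128797 merged regions. Since the set was chosen by the presence of peaks in these 4 lists, presence and peak strength are given as descriptions without a test.

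ATAC-seq marks accessible DNA by where the Tn5 transposase can insert sequencing adapters, and accessible sites away from promoters often act as enhancers. Fetal mammary stem cells appear late in embryonic life and can rebuild a gland when transplanted. Luminal progenitors are cells of the adult inner layer that give rise to milk-producing cells, while mature luminal cells are hormone-sensing and basal cells are contractile. SOX10, an HMG-box transcription factor best known from the neural crest, is also active in fetal mammary stem cells and in adult progenitors.

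Of 20 samples in the series, 8 were normal cells sorted from wild-type mammary glands of C57BL6J mice, with 2 samples for each population: fMaSC at embryonic day 18 and basal, LP and ML cells of adults. The labels give no age beyond "adult" and no sorting markers. The tumour lists used below concern luminal cells of PY230, a single mouse mammary tumour line transplanted into syngeneic C57BL6J hosts, with 3 samples sorted as SOX10-high and 3 as SOX10-low. The labels and list names describe these lists as regions open or closed in SOX10-high PY230 cells. Each peak list combines both samples of a type, and no source used here states how the PY230 lists were made from their samples, so replicate spread and sequencing depth are unknown, and fewer cells with an accessible site cannot be told apart from lower accessibility in every cell. Cell type labels were not checked against marker genes, because no gene annotation of the lists' build, mm9, was used here.

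The fetal-progenitor regions were short and mostly built from 1 peak of each type. Their median width was 545 bp (quartiles 420 and 723 bp), against 588 bp over all merged regions, 374 bp for LP-only regions, 303 bp for fMaSC-only regions and 884 bp for regions shared by fMaSC, basal and LP cells. Of the 2670 regions, 2624 held exactly 1 fMaSC and 1 LP peak. In these the 2 peaks lay on the same spot: their centres were a median of 65.0 bp apart (quartiles 28.0 and 119 bp). In 2565 of them (97.8%) the peaks shared at least 50% of the shorter peak, and in 5 they shared less than 10%. The LP peak was the wider of the 2 in 1454 regions. Together the regions covered 1.61 Mb and took up 3.37% of fMaSC peaks and 4.48% of LP peaks.

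Peaks of the set lay below the middle of their own lists, as did those of several other combinations. The strength of a peak is the authors' fold enrichment over the caller's background, compared here only within a list. The median fMaSC fold in fetal-progenitor regions was 6.58, against 7.60 over all fMaSC peaks, and the median region stood at the 39.1st percentile of that list. The median LP fold was 5.20, against 6.86 over all LP peaks, at the 29.3rd percentile. Only 49 regions (1.84%) reached the top 10% of fMaSC peaks and 9 (0.337%) the top 10% of LP peaks. The median fMaSC fold was also 6.58 in regions of fMaSC and basal cells and in those of fMaSC, LP and ML cells, and it was lower, at 5.57, in fMaSC-only regions (24.7th percentile). LP-only regions had a median LP fold of 4.57 (17.8th percentile). Regions shared by all 4 types held peaks at the 77.1st percentile of the fMaSC list and the 73.1st of the LP list, and 25.5% of them lay in the top 10% of fMaSC peaks. The folds in fMaSC and LP were weakly and positively related, with a Spearman correlation of 0.175 over the 2670 regions. It was 0.227 over the 1996 regions of fMaSC, LP and ML cells, 0.308 over the 8330 of fMaSC, basal and LP cells and 0.691 over the 27947 shared by all 4 types. This is a description over sites that share the same 2 pooled lists. Both folds were below their list median in 1326 regions (49.7%) and both at or above it in 313 (11.7%).

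**Figure D1:**
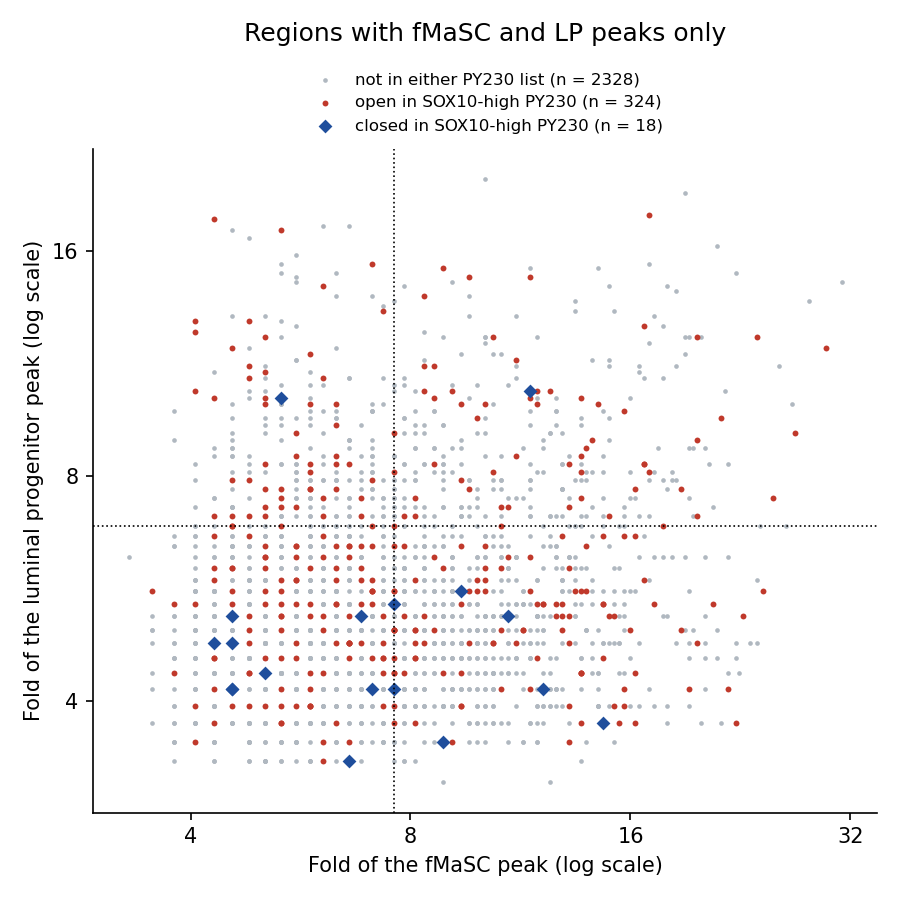
Fold of the fMaSC peak (horizontal, log scale) against fold of the LP peak (vertical, log scale) in each of 2670 fetal-progenitor regions, coloured by overlap with the PY230 lists, with dotted lines at the median of each whole list. Folds come in steps, so points overlap; 1326 regions lie in the lower left field and 313 in the upper right.

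The sites strongest in both lists, ranked by the lower of their 2 percentiles, stood far from basal and ML peaks in most cases. First was chr17:91394551-91395386 (mm9, as are all positions), 836 bp wide, with a fold of 21.0 in fMaSC (92.1st percentile) and 16.2 in LP (89.4th). Its nearest basal peak was 31.7 kb away and its nearest ML peak 180 kb. The next, chr8:38289652-38290764, had an LP fold of 19.1 and lay at the 89.3rd percentile of fMaSC folds, with the nearest basal peak at 164 kb and the nearest ML peak at 163 kb. Its LP fold was at the 93.8th percentile of its list, the highest LP percentile among the 10 leading sites. The highest fMaSC fold of all 2670 regions, 31.1, belonged to chr2:150468954-150470461, where the LP fold was 14.5. At chr1:195662200-195663309 the folds were 17.0 and 17.9, and this was the only site of the 10 that was also open in SOX10-high PY230 cells, where 23 of the 100 strongest were open. The others of the 10 were chr6:142889407-142890236, chr16:95485734-95486621, chr17:52924983-52925990, chr12:40566607-40567836, chr1:188464766-188465702 and chr11:83521887-83523264. At 2 of these a basal peak lay close by, 2.78 kb from the chromosome 12 site and 2.54 kb from the chromosome 1 site. The widest fetal-progenitor region, chr9:31646351-31649434, spanned 3084 bp and stood at the 89.3rd percentile of fMaSC and the 79.3rd of LP folds.

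The weakest members show where the set ends. The lowest fMaSC fold was 3.29, at chr1:121953550-121953990, and the lowest LP fold was 3.12, at both chr1:174914108-174914760 and chr2:64978272-64978886. The nearest barred peak of any region was a basal peak 25 bp from chr7:148649633-148650146, and 5 regions lay within 100 bp of a basal or ML peak. Just outside the set, chr12:35874260-35875027 had an fMaSC fold of 9.88 and an LP fold of 4.36, and was kept out by a basal peak of fold 3.23. Other barred peaks were spread over their lists. Of 8330 regions with fMaSC, basal and LP peaks, 3552 had a basal fold under that list's median of 7.98, and of 1996 regions with fMaSC, LP and ML peaks, 1054 had an ML fold under that list's median of 8.47. With only peaks at or above the median fold of each list, 1478 regions met the same rule, and 313 of the 2670 were among them.

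Part of the fetal-progenitor regions coincided with sites called open in SOX10-high tumour cells. The open PY230 list, which the labels attach to tumour samples and not to the normal samples behind the rule, overlapped 324 of the 2670 regions, or 12.1% (exact Clopper-Pearson 95% interval 10.9 to 13.4%). Over all merged regions that share was 1.88%. Intervals here cover counting error only and treat regions as independent. No test was made, since regions are not replicates of a condition. Among the 15 combinations of cell types the share was next highest in LP-only regions, at 9.66% (8.94 to 10.4%). It was 5.56% where fMaSC, basal and LP cells shared the site, 4.29% for basal with LP, 2.18% for fMaSC alone and 2.15% for fMaSC, LP and ML. Where an ML peak was present without LP, 0.145 to 0.505% of regions were open. Seen from the tumour side, 319 of 3208 open regions (9.94%) touched a fetal-progenitor region, 557 (17.4%) an LP-only region and 455 (14.2%) a region of fMaSC, basal and LP cells. The overlap was rarely marginal, as an open region covered the whole of 302 of the 324 sites and at least 50% of all 324. These open regions had a median width of 1500 bp against 652 bp for the 324 sites, which favours full cover. Over all merged regions the share with at least 50% cover was 1.86%, so this was not particular to the set.

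**Figure D2:**
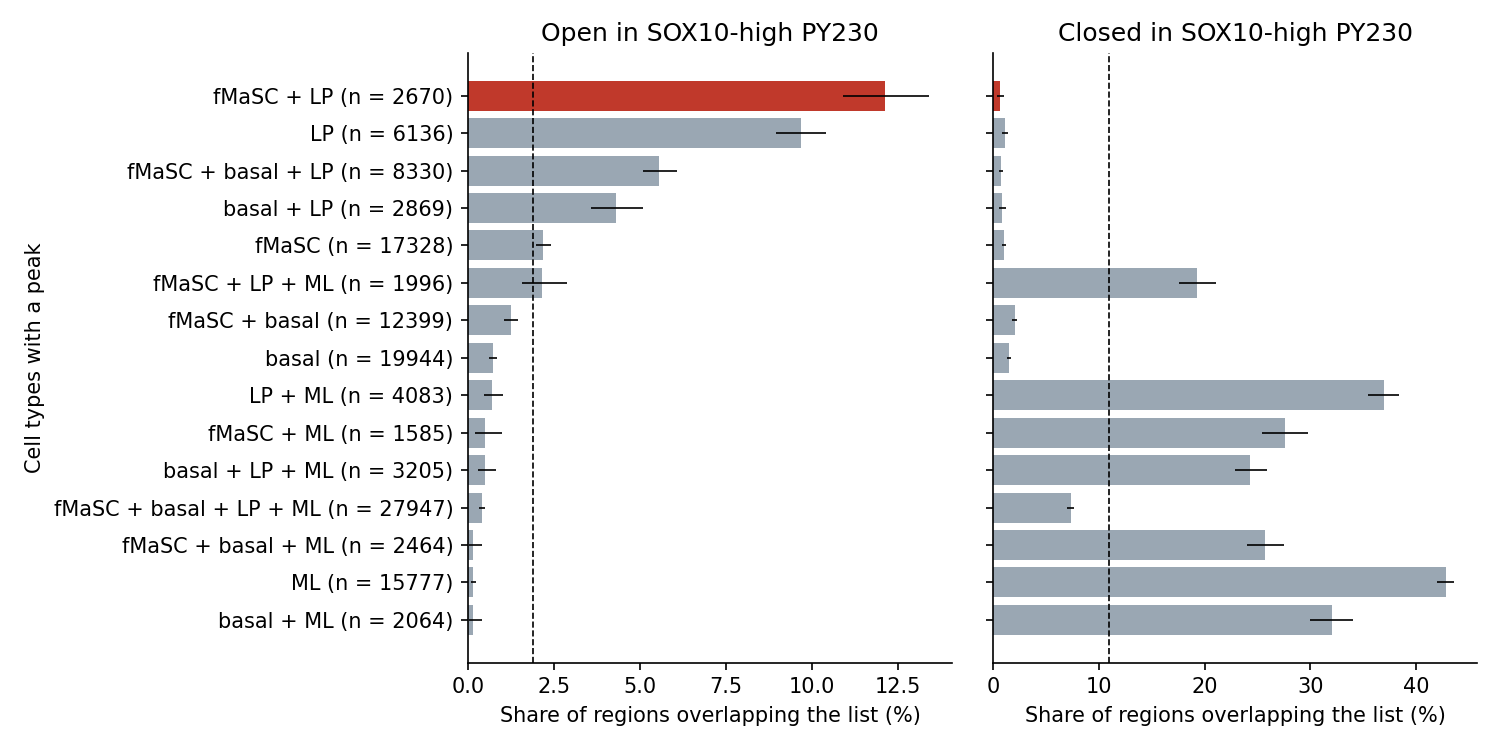
Share of merged regions overlapping the list of regions open (left) or closed (right) in SOX10-high PY230 cells, in percent, for each of 15 combinations of cell types with a peak; bars show the share, lines the exact 95% binomial interval, and the dashed line the share over all merged regions (1.88% and 11.0%). Fetal-progenitor regions (red) reached 12.1% in the open list and 0.674% in the closed list.

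The higher open share than in LP-only regions was not seen within most width classes or at a stricter fold. It was seen with every merged region set to 500 bp, at 12.1% (10.9 to 13.4%) against 9.70% (8.97 to 10.5%). Those intervals did not overlap. Among regions of 250 to under 500 bp, 7.53% (6.02 to 9.27%) of fetal-progenitor and 8.29% (7.38 to 9.28%) of LP-only regions were open. At 500 to under 750 bp the shares were 12.5% and 14.1%, and at 750 to under 1000 bp 21.8% (17.8 to 26.2%) and 16.0% (12.1 to 20.5%). At 1000 bp or more they were 18.1% and 24.3%. Below 250 bp, where the set has few regions, they were 2.44% (0.0617 to 12.9%) and 6.20%, with 1.29% for fMaSC-only regions, which lies within the first interval. The intervals of fetal-progenitor and LP-only regions overlapped in every width class. LP-only regions had the higher share in each class except 750 to under 1000 bp. Fetal-progenitor regions were the wider as a set, with a median of 545 bp against 374 bp. Their width spans an fMaSC and an LP peak, and their LP peaks alone had a median width of 424 bp. Classes of merged width therefore do not match the LP peaks of these sets, and the part of width was not tested. With only peaks at or above each list's median fold, 10.4% (8.91 to 12.1%) of fetal-progenitor and 11.1% (9.92 to 12.3%) of LP-only regions were open. Equal numbers of the strongest peaks of each list gave 9.27% (7.89 to 10.8%) against 8.73% (7.87 to 9.65%). Intervals overlapped at both settings, so neither order is shown. Only 313 and 201 of the 2670 regions overlapped these sets, as dropping weak barred peaks lets other regions in. With every peak set to 500 bp before merging the shares were 10.4% (9.36 to 11.5%) against 8.97% (8.30 to 9.67%), again with overlapping intervals. Merging across 500 bp gave 12.8% (11.5 to 14.2%) against 10.3% (9.44 to 11.1%), without overlap. Against fMaSC-only regions the gap held at each width from 250 bp up, with shares of 2.09, 3.85, 4.90 and 5.31% for fMaSC alone, and at the stricter fold (4.21%). The same was true of regions with an additional basal peak, where 2.02, 5.38, 6.20 and 6.23% were open from the narrowest to the widest of these classes.

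**Figure D3:**
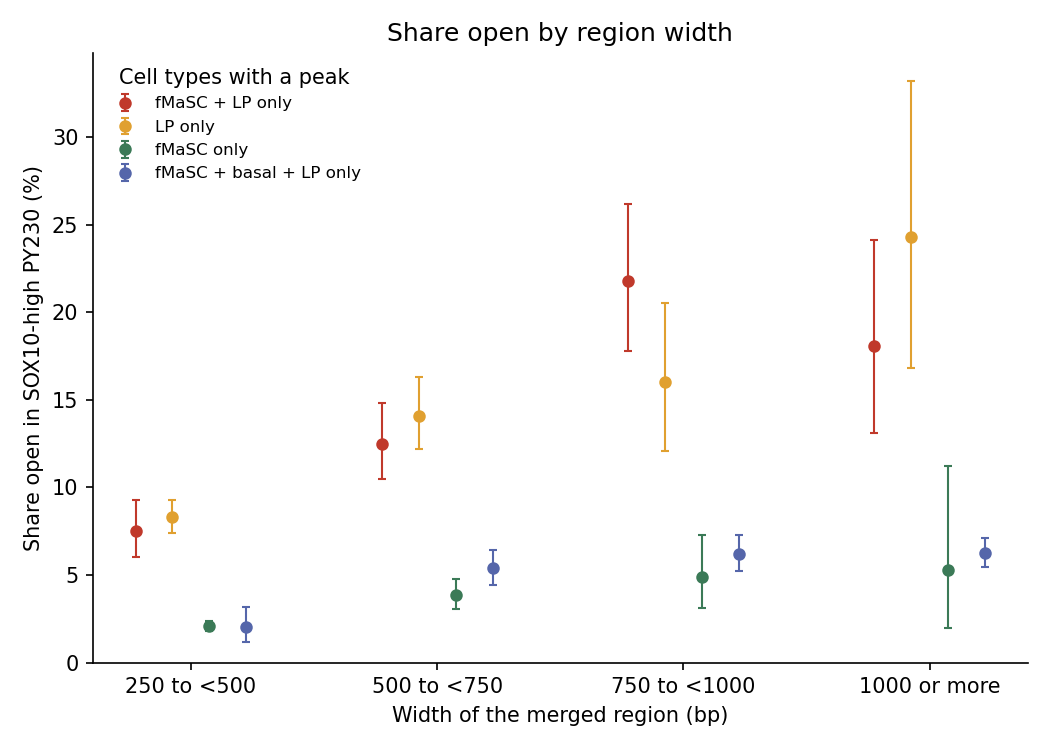
Share of regions open in SOX10-high PY230 cells, in percent, by width of the merged region in bp, for 4 combinations of cell types; points are shares and lines exact 95% binomial intervals. Widths from 250 bp up are shown; fetal-progenitor and LP-only regions overlap in interval at each of them, while fMaSC-only regions and those with an added basal peak lie lower.

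Sites with a higher LP fold had larger open shares, and the spread over fMaSC folds was smaller. In 4 groups of near equal size by LP fold, from weakest to strongest, 48 of 668 fetal-progenitor regions were open (7.19%, 5.35 to 9.41%), then 60 of 667, 88 of 667 (13.2%, 10.7 to 16.0%) and 128 of 668 (19.2%, 16.2 to 22.4%). In 4 such groups by fMaSC fold the shares were 10.2%, 9.45%, 11.1% and 17.8%. The strongest groups were also the widest, with median widths of 732 bp by LP fold and 710 bp by fMaSC fold, against 464 and 478 bp in the weakest, and the part of width in these shares was not tested. Where the LP fold was at or above its list median, the share was 20.3% (15.6 to 25.6%) for regions with a low fMaSC fold and 18.8% (14.7 to 23.6%) for those with a high one. Where the LP fold was low, it was 13.7% with a high fMaSC fold and 7.99% with both folds low.

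Fetal-progenitor regions lay a median of 7.94 kb from the nearest basal peak and 10.7 kb from the nearest ML peak, and 381 (14.3%) had a basal or ML peak within 1 kb. Of those 381, 16 (4.20%, 2.42 to 6.73%) were open in SOX10-high cells. The share was 13.5% (11.7 to 15.5%) at distances of 1 to 10 kb, 11.9% (9.81 to 14.3%) at 10 to 100 kb, and 23.8% (16.5 to 32.3%) for the 122 regions more than 100 kb from any basal or ML peak. LP-only regions also had their lowest share within 1 kb (3.75%). Beyond 100 kb theirs was 13.9% (8.56 to 20.8%), which overlaps the interval of the fetal-progenitor regions. Of fMaSC-only regions that remote, 0.946% were open. The median width of fetal-progenitor regions also rose with distance, at 517, 532, 572 and 630 bp in these classes. The part of width in these shares was not tested.

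By score of the overlapping open region, a value the authors deposited on a scale not given, the leading site was chr14:122412728-122413506, with a score of 528 and folds of 13.9 in fMaSC and 8.73 in LP. It was followed by chr4:18097005-18097606 with 480 and chr7:38077592-38078900 with 439. The chromosome 4 site was modest in both normal lists (folds of 6.33 and 5.40), whereas the chromosome 7 site was stronger in LP, with a fold of 14.8 at the 86.2nd percentile. Scores of 388, 378, 288 and 265 followed at chr4:9262385-9263001, chr15:6829332-6830139, chr1:11990196-11991217 and chr8:53623104-53623968. The last 3 of the 10 were chr1:56459554-56460006 (255), chr1:169512866-169513859 (243) and chr13:74171445-74172054 (236). Distances from barred peaks ranged widely among these 10: chr1:56459554-56460006 was 412 kb from the nearest ML and 518 kb from the nearest basal peak, and chr1:11990196-11991217 was 287 and 342 kb away, but chr4:9262385-9263001 lay 1.54 kb and chr15:6829332-6830139 2.11 kb from a basal peak. Of the 100 highest scores in the open list, 14 were at fetal-progenitor regions, 19 at LP-only regions and 41 outside all normal peaks. Over the whole open list of 3208 regions, 319, 557 and 1064 were. The median score at fetal-progenitor regions was 47.1, close to 44.5 over the whole open list.

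Few of these sites were called closed in SOX10-high cells. The closed PY230 list overlapped 18 of the 2670 regions, or 0.674% (0.400 to 1.06%), against 11.0% of all merged regions. The rule bars ML peaks, and closed regions mostly fell on ML sites: in combinations without an ML peak the closed share ran from 0.674 to 2.06%, and in those with one from 7.33 to 42.8%. The low share was therefore shared by all 7 combinations that lack an ML peak. Of the 18 closed sites, 7 had a basal or ML peak within 1 kb, and the 5 with the highest scores all did. The first, chr3:90427186-90428005, had a score of 336, an fMaSC fold of 12.2 and an LP fold of 4.16, with an ML peak 396 bp away. The second, chr3:109442277-109442757, had a score of 246 and an ML peak 708 bp away. Scores of 184, 94.6 and 92.9 belonged to chr2:58564325-58564737, chr12:25864931-25865498 and chr1:159388290-159389032.

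Few fetal-progenitor regions were in the authors' lists that set 1 normal type apart, named UAR and URR, which the labels do not expand. These lists come from the same libraries as the rule, so nothing is read from the overlaps. There were 72 regions (2.70%) in fMaSC UARs, against 1.06% of all merged regions, and 29 (1.09%) in LP UARs, against 0.273%. No region was in both, and 2569 (96.2%) were in neither. Regions in fMaSC UARs were strong in fMaSC and weak in LP, with median folds of 18.9 and 4.78, and those in LP UARs the reverse, with 5.32 and 12.9. Of the barred types, ML URRs held 5 regions (0.187%, against 0.904% of all merged regions). Basal URRs held 1 (against 0.0660%) and ML UARs 1 (against 2.96%). Basal UARs (4.80% of all merged regions), fMaSC URRs (0.220%) and LP URRs (0.0225%) held 0, which allows a share of up to 0.112% each. Open in SOX10-high tumour cells were 20 of the 72 in fMaSC UARs (27.8%, 17.9 to 39.6%) and 9 of the 29 in LP UARs (31.0%, 15.3 to 50.8%). For comparison, 54 of 1027 fMaSC-only regions in fMaSC UARs were open (5.26%, 3.97 to 6.81%), and 72 of 231 LP-only regions in LP UARs (31.2%, 25.3 to 37.6%). Outside both UAR lists 295 of 2569 fetal-progenitor regions (11.5%, 10.3 to 12.8%) were open. Those outside had a median width of 534 bp, against 923 bp in fMaSC UARs and 1073 bp in LP UARs. The part of width in these shares was not tested.

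Fetal-progenitor regions were scattered, with some local groups. The nearest merged region was one shared by all 4 types for 511 regions (19.1%, where such regions make up 21.7% of all merged regions). It was an fMaSC-only region for 494 (18.5%, against 13.5%) and an LP-only region for 285 (10.7%, against 4.76%). It was another fetal-progenitor region in 175 cases (6.55%), where such regions make up 2.07% of all merged regions. Another member of the set lay within 10 kb of 255 regions (9.55%), and the median distance between neighbours was 183 kb. Combinations with more regions have closer neighbours, so these shares are not compared between them. In 149 places fetal-progenitor regions followed each other with no other merged region between them, and in 2 of these 4 came in a row.

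A row of 4, picked out after its values were seen, ran over 67.6 kb on chromosome 10. Its first site, chr10:23069504-23070556, had folds of 7.34 in fMaSC and 5.20 in LP and was not open in SOX10-high cells. The other 3 were open. At chr10:23085337-23086401 the LP peak was the stronger by percentile, with folds of 6.08 and 14.3. At chr10:23133678-23134348 the fMaSC peak was, with folds of 21.3 and 9.56, and at chr10:23136608-23137134 they were 11.6 and 4.16. The other row of 4, over 231 kb on chromosome 12 from 94165332 to 94396025, held 0 open sites.

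The densest 1 Mb window lay on chromosome 6 from 142059999 to 143059998 and held 17 fetal-progenitor regions among 81 merged regions, or 21.0%. The window also held 15 fMaSC-only and 7 LP-only regions, and 12 shared by all 4 types. Its fetal-progenitor folds ran from 4.81 to 22.3 in fMaSC and started at 3.74 in LP, and 1 of them, chr6:142889407-142890236, was among the 10 strongest of the set. None of the 17 was open in SOX10-high PY230 cells and 1 was closed, while over all 81 merged regions of the window 3 were open and 10 closed. The next windows, on chromosome 15 from 24956559 to 25956558 and on chromosome 14 from 121311643 to 122311642, held 12 of 145 and 11 of 146 merged regions. Between them 1 fetal-progenitor region was open, on chromosome 15, and 0 were closed. Over all their merged regions 3 were open and 10 closed on chromosome 15, and 0 were open and 14 closed on chromosome 14.

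**Figure D4:**
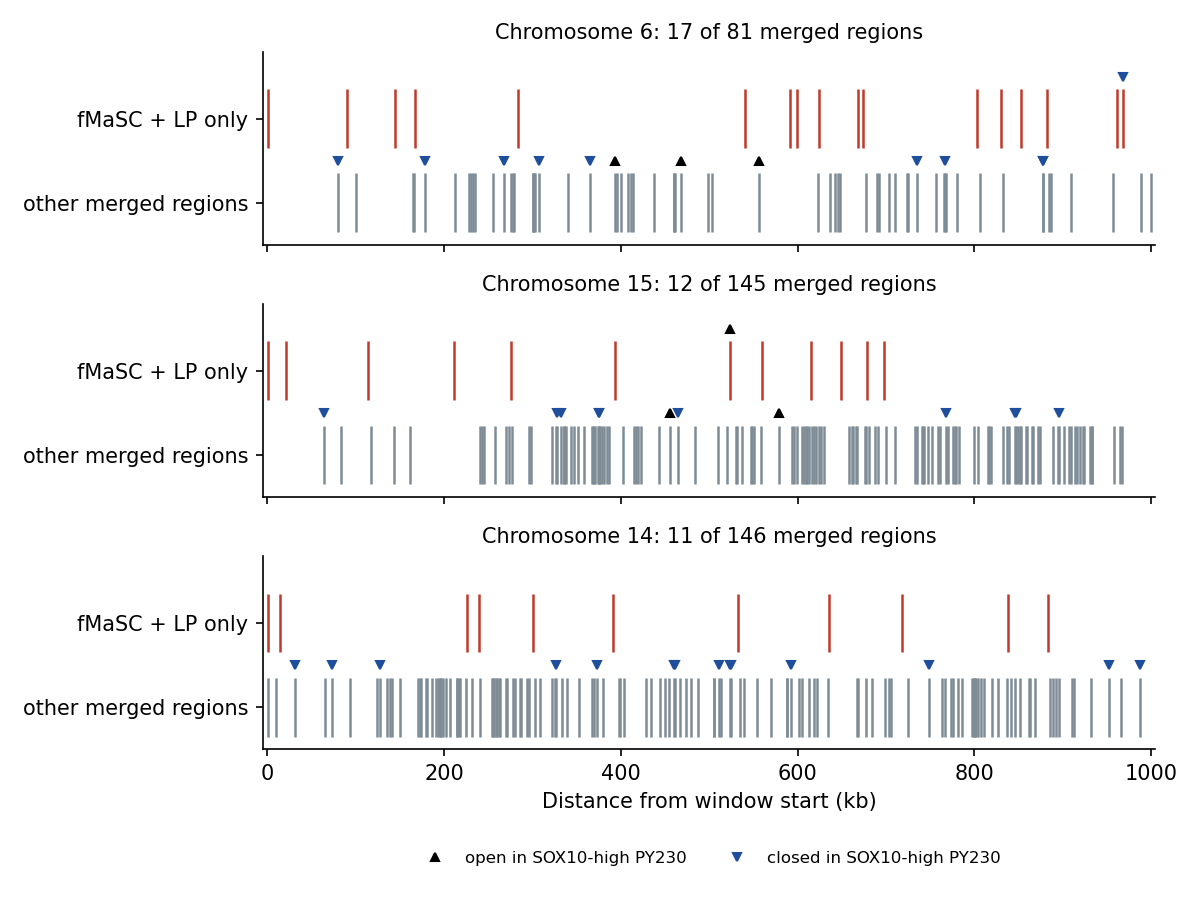
Merged regions in the 3 densest 1 Mb windows, by distance of their centre from the window start in kb; red lines are fetal-progenitor regions, grey lines all other merged regions, and triangles mark overlap with the open or closed PY230 list. The chromosome 6 window holds 17 fetal-progenitor regions, of which 0 are open and 1 is closed.

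All 20 chromosomes carried fetal-progenitor regions. Their share of merged regions was lowest on chromosome 8, at 1.40% (1.14 to 1.71%), and highest on chromosomes 13 (2.90%, 2.49 to 3.36%) and 14 (2.90%, 2.46 to 3.39%). Chromosome X held 76 of the set, or 2.85% (2.25 to 3.55%), against 2.14% of all merged regions. Openness in SOX10-high cells was counted over fewer regions per chromosome, so its intervals were wide. It reached 33 of 173 regions on chromosome 13 (19.1%, 13.5 to 25.7%), against 2.75% of all merged regions there. On chromosome 4 it was 27 of 149 (18.1%, 12.3 to 25.3%), against 3.07%. It was 9 of 164 on chromosome 6 (5.49%, 2.54 to 10.2%), against 1.35%, and 3 of 91 on chromosome 17 (3.30%, 0.685 to 9.33%). On each of the 20 chromosomes the share was above that of all merged regions of the same chromosome, by the least on chromosome 17, where that share was 1.42%.

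**Figure D5:**
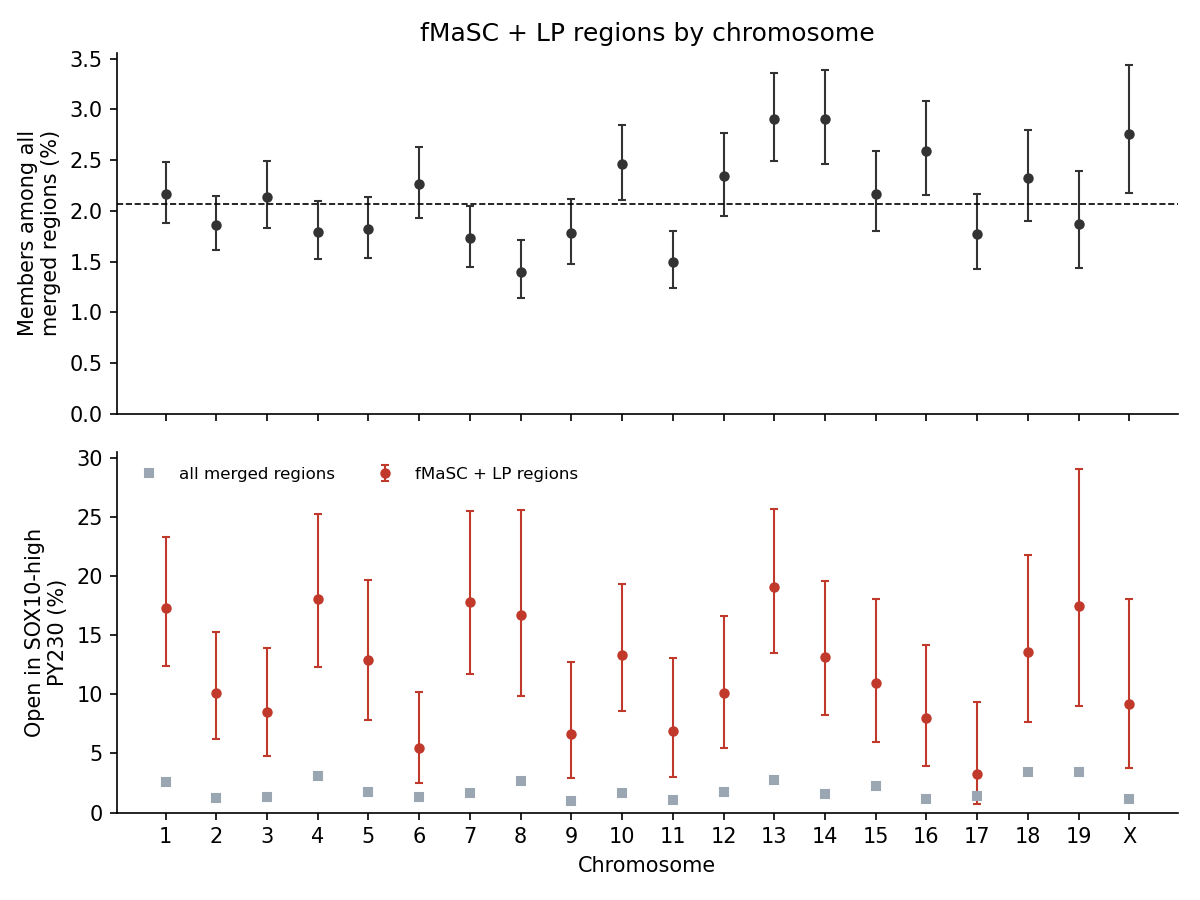
Share of merged regions that are fetal-progenitor regions (top, dashed line 2.07% genome-wide) and share open in SOX10-high PY230 cells (bottom, red for fetal-progenitor regions, grey squares for all merged regions), in percent, for each of 20 chromosomes; lines are exact 95% binomial intervals. The red points lie above the grey squares on every chromosome, closest on chromosome 17 (3.30 against 1.42%).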

How the data were processed

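ATAC-seq was done on nuclei of sorted mouse cells with Nextera transposase, 10 to 14 PCR cycles and paired-end Illumina sequencing, per the labels' protocols. Tools listed without a role in the submitters' processing notes are MACS2 2.1.1 and SICER, beside Bowtie (version 0.12.8), with SAMtools 1.3.1, FastQC and bedtools 2.20.1, and the build is mm9. No source used here states how duplicates, repeats and Tn5 offsets were handled, which could change which weak peaks exist. Each peak carries a fold, deposited by the authors as a ratio over the caller's background. Peaks were called on both samples of a type together at q 0.001, per the list names. The UAR, URR and PY230 lists carry a score deposited by the authors on a scale not given.

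Peaks were merged across types, without the 3 mitochondrial peaks of each list, and set against the other 10 lists with an overlap of at least 1 bp. Coordinates are 1-based mm9, and grid-based lists were moved by 1 base. Shares have exact Clopper-Pearson 95% intervals, and a share of 0 the limit set by 3 counts. A region's fold is that of its strongest peak of the type, and percentiles are within a list. Depth per sample is unknown, and lists that pool samples allow no replicate test. Regions named are the 10 strongest in both lists, the 10 open and 5 closed sites of highest score, the widest, those at the rule's edge and the 3 densest windows, plus the rows of 4 adjoining regions, picked after their values were seen. Members and lists were chosen with earlier results of these data known. Width, fold and distance classes were set after the data were seen. The reference tables at hand are of another build, so genes, sequences and motifs were not analysed here, nor were the basal SOX10-high, C3-1-TAg, bulk and culture samples. Alternatives covered fold, merging, peak width, overlap and isolation. Python 3.11.15, numpy 2.4.6, pandas 2.3.3 and scipy 1.17.1 were used, tested on simulated data against bedtools 2.31.1.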

Additional observations from a re-analysis of the deposited data

How the results depend on the processing

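Of 48 alternative values, 29 stayed close to the reported ones (a count within 1.5 times, a share or median within its exact 95% interval) and 19 did not. Some of the 29 could not move: the shares in basal UARs, fMaSC URRs and LP URRs were 0 and stay so at 50% cover. The number of regions was most sensitive to peak strength: 1478 with folds at or above each list's median, 1597 with the 30015 strongest peaks of each list, and 313 when only the fMaSC and LP peaks had to be strong. Of the 2670 regions, 313, 201 and 313 overlapped a region of these sets. The share open in SOX10-high PY230 cells was 10.4%, 9.27% and 18.8% under these 3 settings, 10.4% with every peak set to 500 bp, 13.5% without regions within 1 kb of a basal or ML peak, and 6.70% with PY230 regions scoring at or above the list's median. The share over all merged regions ran from 0.980 to 2.02%. For the 18.8% and 13.5% only the set was filtered, so the share over all merged regions beside them was an unfiltered 1.88%. The closed share moved to 1.69% with the 30015 strongest peaks, 1.29% at 500 bp, 0.319% for strong regions and 0.112% with high-scoring closed regions. Over all merged regions it ran from 5.56 to 15.4%, with an unfiltered 11.0% beside the strong regions. Regions with another of the set within 10 kb made up 6.01% with the 30015 strongest peaks, and by construction 26.6% within 50 kb and 37.3% within 100 kb. Median width was 570 bp when merging across 500 bp and 870 bp with the 30015 strongest peaks. The share on chromosome X was 2.03% at the stricter fold, against 1.93% of all merged regions there. The cause of these shifts was not tested. Depth is unknown, so weak peaks of the barred types could not be told from absent ones. No sample could be left out, and no motif alternative was run. No paired analysis was possible because each list combines both samples of a type and no values per sample were used here.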
